A study of Mus musculus with 24 samples.

Results

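A set of 8 genes of sterol synthesis and its control were followed in mouse kidney after myocardial infarction (MI). They were chosen by name, with earlier results of these data known. The set holds the enzyme genes Hmgcs1, Idi1, Fdps, Fdft1, Sqle and Cyp51 and the regulator genes Srebf2 and Insig1. These are 8 of the 56941 genes in the count table. All 8 passed the filter on low counts, so that none of them is missing from the tests. The mice were adult male C57BL/6J wildtype animals. In the MI groups the left anterior descending artery (LAD) of the heart was permanently ligated, and the sham group underwent surgery without ligation. Kidneys were analysed from 8 sham mice, from 8 mice at 5d post-MI and from 6 mice at 28d post-MI. Sham kidneys, all taken at the 5d time point, were the controls of both MI groups. Therefore time since surgery and age cannot be told apart from MI in the comparison at 28d. RNA was sequenced from the 3′ end by MACE, in which each read marks the end of one transcript and unique molecular identifiers remove copies made by PCR.

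Cells build cholesterol from acetyl-CoA through mevalonate, isoprenoid and squalene intermediates. SREBP2, the product of Srebf2, is a transcription factor that is held in the endoplasmic reticulum together with its escort protein SCAP while sterols are plentiful. It is released to the nucleus when sterols run low and then activates most genes of the pathway, including Insig1, whose product retains the SCAP and SREBP complex. Kidney tubule cells both make cholesterol and take it up from lipoproteins.

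SREBP proteins bind sterol regulatory elements near the transcription start. The core of this element, CACNCCA, was therefore searched on both strands in the RefSeq promoter windows of build GRCm38.p6, which cover 250 bases before to 50 bases after each start. Windows were found for 5 of the 8 genes (Hmgcs1, Idi1, Cyp51, Srebf2 and Insig1). The core was present in 3 of these 5 windows, Hmgcs1, Srebf2 and Insig1, and in 18.4% of all 32851 windows. Of the 14 other synthesis enzymes with a window, 2 held it (Acat2 and Msmo1). The stretches with the match are printed here because the pathway's own regulators, Srebf2 and Insig1, are among the genes that hold it. Capitals mark the match, which is read on the printed strand for Hmgcs1 (chr13:119690101-119690350) and Srebf2 (chr15:82147019-82147180) and on the opposite strand for Insig1 (chr5:28071381-28071410). All 3 genes lie on the plus strand. In GENCODE, Insig1 starts at base 28071363, so that its printed stretch lies within the annotated gene, although before the RefSeq start.
Hmgcs1: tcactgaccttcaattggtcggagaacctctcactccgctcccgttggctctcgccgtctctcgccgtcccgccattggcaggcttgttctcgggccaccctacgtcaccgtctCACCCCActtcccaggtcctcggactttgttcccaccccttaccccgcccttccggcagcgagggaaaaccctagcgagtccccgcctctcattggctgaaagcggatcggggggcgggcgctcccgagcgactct
Srebf2: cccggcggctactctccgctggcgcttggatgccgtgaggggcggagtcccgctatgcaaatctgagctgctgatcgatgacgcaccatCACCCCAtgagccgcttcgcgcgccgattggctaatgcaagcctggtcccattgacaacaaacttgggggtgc
Insig1: cgggcgcggtacgtgtagtgtcgTGGCGTG

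SREBP factors act together with NF-Y, which binds CCAAT, and with SP1, which binds GGGCGG. Each of these motifs was present in all 5 windows, compared to 37.4% and 35.7% of all windows, respectively. Of the 14 other synthesis enzymes with a window, 13 held CCAAT and 12 held GGGCGG. The E-box CACGTG was present in 1 of the 5 windows, that of Insig1, and in 7.15% of all windows. None of the 3 core matches overlapped a match of another motif. Letters in a window describe the sequence and do not show that a factor binds there.

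Total counts per kidney ranged from 2280618 to 3786275. Normalised CPM are counts scaled to a common library total. The summed CPM of 6 proximal tubule markers were between 6087 and 8846 in all 22 kidneys. Slc34a1 and Miox made up most of this sum, and 5 of the 6 markers passed the filter on low counts. The remaining marker, Slc5a2, had at most 3 counts in any kidney. Adrenal cortex markers stood apart in 3 kidneys. Their summed CPM was 1048 in sham replicate 2, 827 in sham replicate 6 and 99.9 in replicate 5 at 5d post-MI, compared to 5.69 to 10.5 in the other 19 kidneys. White adipocyte markers were present in every kidney, with sums from 389 to 1966 in sham, from 194 to 1438 at 5d and from 381 to 987 at 28d. Fabp4 and Cfd made up most of each of these white adipocyte sums. Since adrenal cortex and fat both make cholesterol, the results are also given without these kidneys or with these sums as covariates where that matters. Erythroid markers were higher at 5d post-MI, and all 4 of them passed the test.

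None of the 8 genes passed the test in any of the 3 comparisons (edgeR's quasi-likelihood test, Benjamini-Hochberg adjusted p under 0.05 over 12780 genes). DESeq2 and limma voom called none of the 8 either. The share of all tested genes that passed was 0.0704% at 5d post-MI vs sham, 0.0235% at 28d post-MI vs sham and 0.415% for 28d vs 5d. At an unadjusted p under 0.05, 2 of the 8 genes were lower at 5d (Insig1 and Srebf2), where 3.97% of all genes were lower and 7.9% differed in either direction. At 28d 1 of the 8 was lower (Fdps), where 4.23% of all genes were lower and 8.68% differed, and between 28d and 5d no gene of the set reached this level, compared to 9.05% of all genes. The median log2 fold change of the set was −0.10 at 5d, −0.11 at 28d and −0.02 between the times, while the medians of all tested genes were 0.00018, −0.0012 and −0.0046. The log2 fold change was below 0 for 6 of the 8 genes at 5d and for 6 of the 8 at 28d, compared to 49.9% and 50.4% of all genes. Both of these comparisons use the same sham kidneys. In none of the 8 genes did the values of 2 groups fail to overlap, whereas 0.0548%, 0.258% and 0.344% of all genes had groups without overlap in the comparisons in this order.

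**Figure D1:**
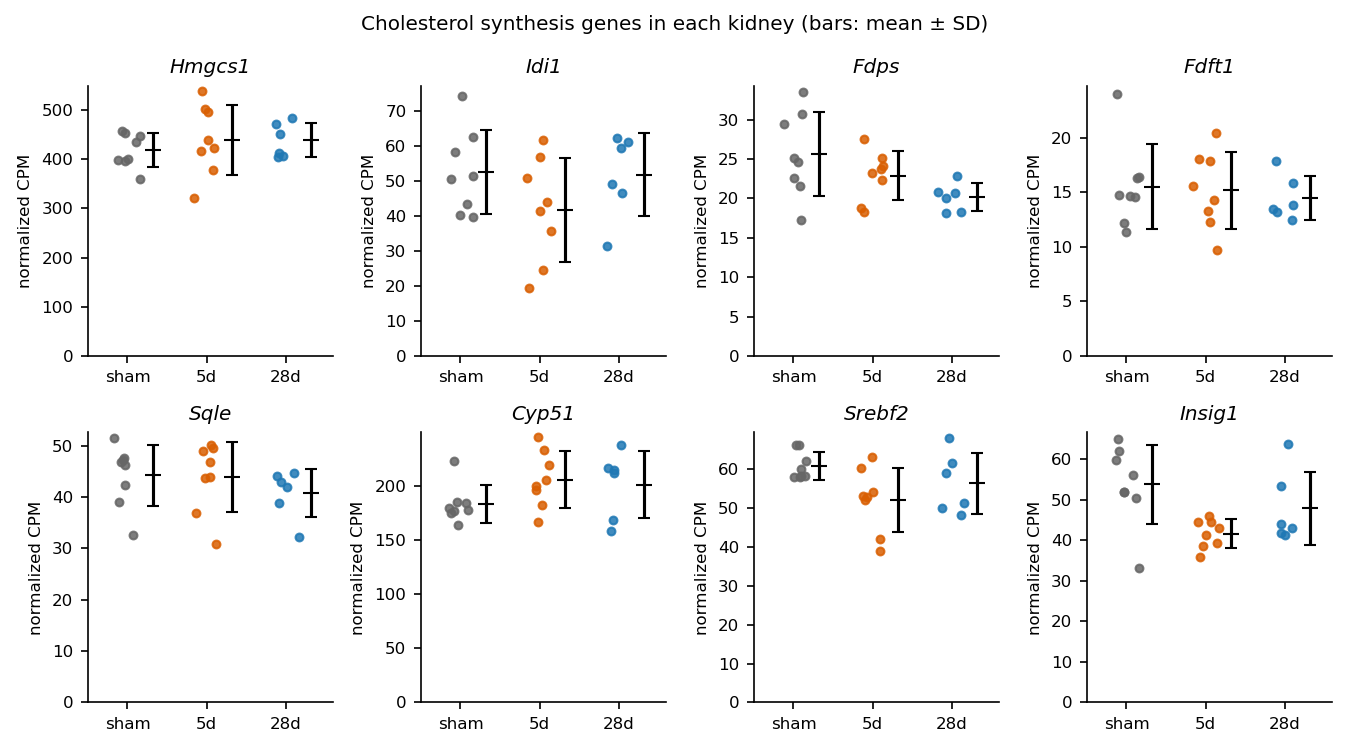
Normalised CPM of each gene (y axis, starting at 0) in every sham, 5d and 28d post-MI kidney (x axis), with 1 point per kidney and black bars for the mean ± SD (n = 8, 8 and 6). The groups overlap in every panel. The lowest Insig1 value belongs to a sham kidney (33.3 CPM), although the other 7 sham kidneys lie above all 5d kidneys.

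Hmgcs1 encodes the cytosolic HMG-CoA synthase, which makes the precursor of mevalonate (ENSMUSG00000093930, chr13:119690379-119708260 on the plus strand of GRCm38). Its lowest, median and highest values were 360.3, 418 and 458 CPM in sham kidneys, 322, 431 and 538 CPM at 5d and 405, 433 and 484 CPM at 28d. The values at 5d spread beyond the sham range on both sides, with 3 of 8 kidneys above the highest and 1 below the lowest sham kidney. The log2 fold change was 0.07 ± 0.08 (SE) at 5d, with a 95% interval from −0.10 to 0.24 (adjusted p = 0.901), and 0.07 ± 0.09 at 28d, with an interval from −0.11 to 0.25 (adjusted p = 0.898). This gene carried the most counts of the set, between 899 and 1687 per kidney.

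Idi1 encodes isopentenyl-diphosphate isomerase, which interconverts the activated isoprene units (ENSMUSG00000058258, chr13:8885501-8892451, plus strand). The lowest, median and highest values were 39.8, 51.1 and 74.5 CPM in sham, 19.5, 42.8 and 61.9 CPM at 5d and 31.5, 54.4 and 62.4 CPM at 28d. At 5d it varied more between kidneys than any other gene of the set, with a coefficient of variation of 35.5%. The values of 3 of the 8 kidneys at 5d lay under the sham range. A log2 fold change of −0.35 ± 0.21 at 5d came with an interval from −0.78 to 0.09 (adjusted p = 0.727), the widest of the set. At 28d the log2 fold change was −0.03 ± 0.22 (adjusted p = 0.991), and it turned positive in some of the fits with a single kidney left out.

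Fdps encodes farnesyl diphosphate synthase, which joins the isoprene units and stands at the branch to sterols and prenylated proteins (ENSMUSG00000059743, chr3:89093588-89101959, minus strand). The lowest, median and highest values were 17.2, 24.9 and 33.4 CPM in sham, 18.2, 23.5 and 27.6 CPM at 5d and 18.1, 20.4 and 22.8 CPM at 28d. All 6 kidneys at 28d were below the sham mean of 25.6 ± 5.35 CPM (SD, n = 8), yet none was below the lowest sham kidney. At 28d the log2 fold change was −0.34 ± 0.12, corresponding to 0.790-fold, with an interval from −0.59 to −0.09 (adjusted p = 0.388). At 5d it was −0.16 ± 0.11 (adjusted p = 0.775). With the white adipocyte sum as a covariate the value at 28d moved to −0.23 (adjusted p = 0.833), and with both marker sums to −0.22. The 3′ end of Fdps lies within the annotated gene Gm43738 on the same strand, which overlaps 7512 bases of it, and reads shared by the pair cannot be told apart.

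Fdft1 encodes squalene synthase, the first enzyme committed to sterols (ENSMUSG00000021273, chr14:63145150-63179578, minus strand). The lowest, median and highest values were 11.4, 14.7 and 24.0 CPM in sham, 9.70, 14.9 and 20.5 CPM at 5d and 12.5, 13.6 and 17.9 CPM at 28d. The groups lay almost entirely on top of each other. The log2 fold change was −0.03 ± 0.14 at 5d (interval −0.31 to 0.25) and −0.10 ± 0.16 at 28d (interval −0.41 to 0.22), with adjusted p of 0.979 and 0.913. With 29 to 71 counts per kidney this was the gene with the fewest counts of the set. Its 3′ end overlaps the end of Ctsb on the opposite strand by 774 bases, and the strand setting of the counting is not given in the sources used here.

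Sqle encodes squalene epoxidase, which uses oxygen in a rate-limiting step of the sterol branch (ENSMUSG00000022351, chr15:59315077-59331192, plus strand). Its lowest, median and highest values were 32.7, 46.6 and 51.6 CPM in sham, 30.9, 45.5 and 50.2 CPM at 5d and 32.2, 42.4 and 44.7 CPM at 28d. The medians at sham and 5d were close, and the log2 fold change at 5d was −0.01 ± 0.09 (adjusted p = 0.991), with an interval from −0.19 to 0.17. At 28d the log2 fold change was −0.12 ± 0.10 (adjusted p = 0.801), with an interval from −0.32 to 0.08.

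Cyp51 encodes lanosterol demethylase, the cytochrome P450 enzyme that acts on the first sterol ring product (ENSMUSG00000001467, chr5:4081145-4104746, minus strand). The lowest, median and highest values were 164, 178 and 223 CPM in sham, 166, 202 and 245 CPM at 5d and 159, 213 and 238 CPM at 28d. This was the gene with the most positive log2 fold change of the set at both times. At 5d 6 of 8 kidneys were above the sham mean of 183 ± 17.4 CPM, and the log2 fold change was 0.17 ± 0.08 with an interval from −0.01 to 0.34 (adjusted p = 0.646). At 28d 4 of 6 kidneys were above that mean, and the log2 fold change was 0.14 ± 0.09 (adjusted p = 0.728). With the white adipocyte sum as a covariate both values of Cyp51 were larger. The log2 fold change was then 0.226 at 5d (edgeR, unadjusted p = 0.00719, adjusted p = 0.518). At 28d it was 0.231 (edgeR, unadjusted p = 0.0148, adjusted p = 0.708). A stretch of 166 bases at its 3′ end is shared with Akap9 on the opposite strand.

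Srebf2 encodes SREBP2 itself (ENSMUSG00000022463, chr15:82147181-82205379, plus strand), and its promoter window holds the core element printed above. The lowest, median and highest values were 58.0, 59.3 and 66.4 CPM in sham, 39.1, 53.0 and 63.1 CPM at 5d and 48.3, 55.2 and 68.0 CPM at 28d. The sham kidneys were tightly grouped, with a coefficient of variation of 5.92%, and 6 of the 8 kidneys at 5d lay under the sham range. At 5d the log2 fold change was −0.23 ± 0.08, or 0.854-fold, with an interval from −0.39 to −0.06 (adjusted p = 0.446). It remained between −0.27 and −0.17 when any single kidney was left out. At 28d 3 of 6 kidneys lay under and 1 above the sham range, and the log2 fold change was −0.11 ± 0.09 (adjusted p = 0.782).

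Insig1 encodes the endoplasmic reticulum protein that holds back SCAP and SREBP and is itself a target of SREBP factors (ENSMUSG00000045294, chr5:28071363-28078662, plus strand). Its lowest, median and highest values were 33.3, 53.9 and 65.0 CPM in sham, 35.8, 42.2 and 46.1 CPM at 5d and 41.4, 43.5 and 63.8 CPM at 28d. All 8 kidneys at 5d were below the sham mean of 53.8 ± 9.81 CPM, and all were above sham replicate 8, which was the lowest of all 22 kidneys. At 5d the log2 fold change was −0.36 ± 0.10, or 0.779-fold, with an interval from −0.57 to −0.15 (adjusted p = 0.289). Without sham replicate 8 it was −0.44 with an adjusted p of 0.0353, and Insig1 then passed the test. It also passed without a filter on low counts (adjusted p = 0.00764), when 80 genes of the whole table did. It did not pass in the other fits with a single kidney left out or in the other settings. At 28d the log2 fold change was −0.16 ± 0.11 (adjusted p = 0.744), and −0.05 with the summed white adipocyte markers as a covariate (adjusted p = 0.973). In whole kidney RNA, fewer cells of a type and less RNA per cell cannot be told apart.

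Between 28d and 5d the log2 fold changes of the set ranged from −0.18 ± 0.13 for Fdps to 0.32 ± 0.23 for Idi1, and the smallest adjusted p was 0.649 for Insig1 (0.20 ± 0.11). The mean values of Insig1 and Srebf2 at 28d lay between those of sham and 5d, but neither of the neighbouring steps passed the test.

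**Figure D2:**
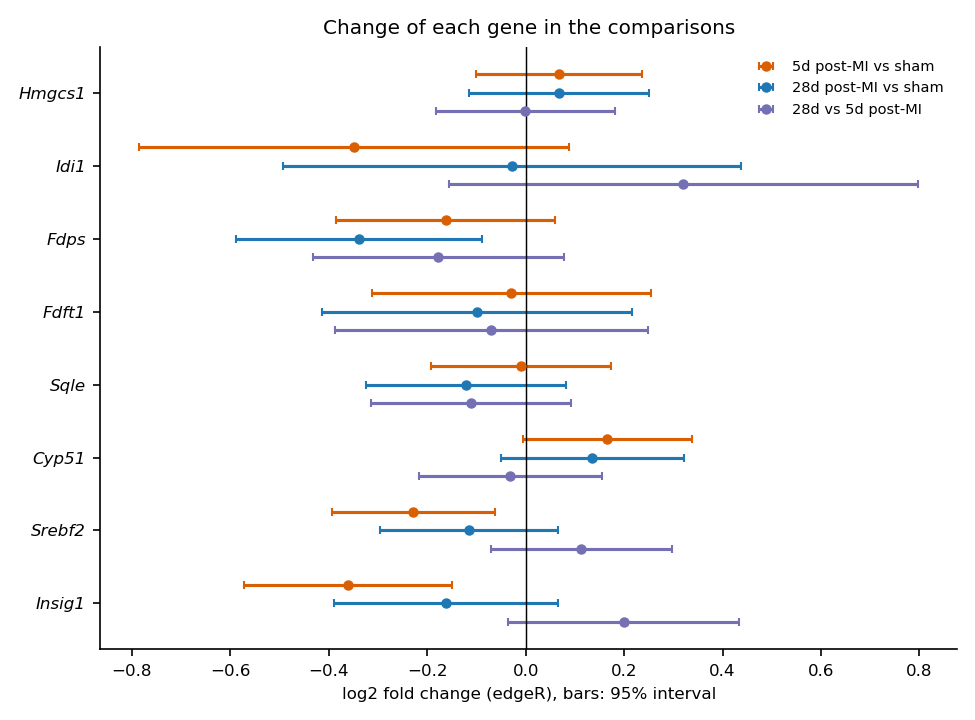
Log2 fold change (x axis) of each gene (y axis) in the 3 comparisons, with points for the edgeR estimate and bars for its 95% interval. The intervals of Insig1 and Srebf2 at 5d (orange) and of Fdps at 28d (blue) lie below 0, and all other intervals include 0. The intervals are not adjusted for the number of genes tested.

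The other enzymes of the pathway were examined to see whether they moved like these genes. Of 15 such genes 14 had enough counts for a test, and Lbr did not. No enzyme passed edgeR's test at 5d or at 28d vs sham. The median log2 fold change of the 14 was −0.14 at 5d, with 11 below 0, and −0.05 at 28d, with 10 below 0. Of all tested genes 49.9% and 50.4% were below 0 at these times. At 5d an unadjusted p under 0.05 by edgeR was reached by 3 of the 14, all lower, where 3.97% of all genes were lower. At 28d it was reached by 1, Mvd, which was higher, where 8.68% of all genes differed in either direction. Nsdhl, a sterol demethylation enzyme, was at −0.27 ± 0.10 on the log2 scale (edgeR, adjusted p = 0.451), with 6 of 8 kidneys under the sham range. Sc5d, the lathosterol desaturase, had −0.19 ± 0.08 (edgeR, adjusted p = 0.564), and Mvd had −0.16 ± 0.08 (edgeR, adjusted p = 0.624).

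Mvd, the mevalonate diphosphate decarboxylase that acts just before Idi1, was the only enzyme that passed a test. Its level was 47.4 ± 6.70 CPM at 5d (n = 8) and 62.4 ± 8.34 CPM at 28d (n = 6), compared to 52.8 ± 3.55 CPM in sham (n = 8). At 28d 5 of 6 kidneys were above every kidney at 5d. Mvd rose from 5d to 28d with a log2 fold change of 0.40 ± 0.09 (edgeR, adjusted p = 0.0149). The call rested on replicate 3 at 28d, which at 78.9 CPM was far above the other 5 kidneys of its group at 55.2 to 60.8 CPM. Without it the log2 fold change was 0.32 (edgeR, adjusted p = 0.0973), and with only the groups compared in the fit the adjusted p was 0.0577. Against sham, the value at 28d was 0.23 ± 0.08 (edgeR, adjusted p = 0.388). Hsd17b7, with 0.22 ± 0.12 at 28d vs sham (edgeR, adjusted p = 0.634), was the next by p.

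**Figure D3:**
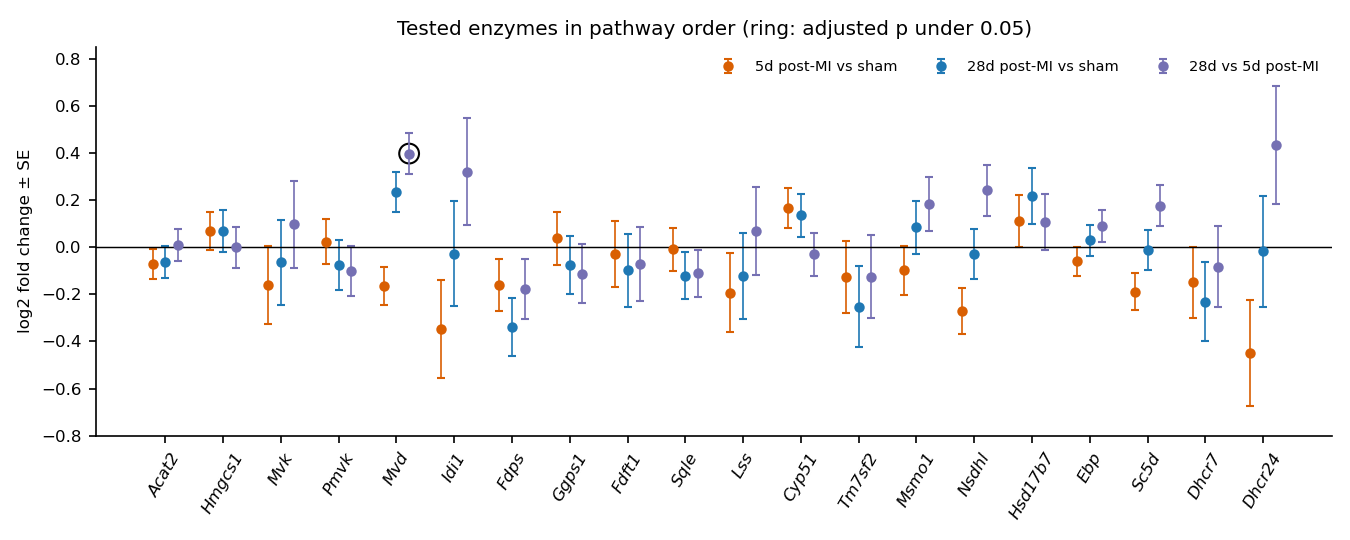
Log2 fold change ± SE (y axis) of the 20 tested enzymes in the order of the pathway (x axis), including the 6 enzymes of the set, in the 3 comparisons. The ring marks Mvd for 28d vs 5d (0.40), the only point with an adjusted p under 0.05.

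Of 7 genes that carry SREBP from the endoplasmic reticulum to the nucleus or control this step, none passed edgeR's test in a comparison and none reached an unadjusted p under 0.05. The 2 lowest p at 5d belonged to Scap, the escort protein, with −0.09 ± 0.07 (adjusted p = 0.816), and to the protease gene Mbtps1 with −0.08 ± 0.07 (adjusted p = 0.871). At 28d vs sham they belonged to Srebf1 with −0.19 ± 0.12 (adjusted p = 0.708) and to the protease gene Mbtps2 with 0.09 ± 0.15 (adjusted p = 0.925), which turned negative without the kidneys high in adrenal markers. For 28d vs 5d Mbtps2 was at 0.15 ± 0.15 and Scap at 0.07 ± 0.08 (edgeR, adjusted p = 0.841 and 0.870).

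Of 10 genes for cholesterol efflux, esterification and transport, none passed edgeR's test in any comparison. An unadjusted p under 0.05 by edgeR was reached by 1 at 5d, 2 at 28d and 1 between the times. Among all tested genes 7.9%, 8.68% and 9.05% reached this level, respectively. Scarb1, the receptor for high-density lipoprotein, was at 27.4 ± 16.8 CPM in sham, 17.2 ± 2.61 CPM at 5d and 16.3 ± 4.10 CPM at 28d. Its log2 fold changes of −0.63 ± 0.28 at 5d and −0.71 ± 0.31 at 28d (edgeR, adjusted p = 0.592 and 0.537) were −0.11 and −0.17 without the 3 kidneys high in adrenal cortex markers. Npc2, which carries cholesterol out of lysosomes, had −0.15 ± 0.07 at 28d vs sham (edgeR, adjusted p = 0.532). Mylip, which marks lipoprotein receptors for degradation, had 0.38 ± 0.19 at 5d vs sham and −0.56 ± 0.21 for 28d vs 5d (edgeR, adjusted p = 0.647 and 0.401). Abcg1, a sterol exporter, had 0.32 ± 0.22 for 28d vs 5d (edgeR, adjusted p = 0.733).

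Of 8 genes of the fatty acid branch, which is driven by SREBP1, none passed edgeR's test, but most were lower after MI. At 5d 7 of the 8 were lower with an unadjusted p under 0.05 by edgeR, and at 28d 5 of the 8 were, where 3.97% and 4.23% of all genes were. The median log2 fold change was −0.75 at 5d and −0.79 at 28d. Fasn, the fatty acid synthase, was at 533 ± 261 CPM in sham and 196 ± 62.0 CPM at 28d (log2 fold change −1.44 ± 0.47, edgeR, adjusted p = 0.361). Acly, which supplies acetyl-CoA to both branches, was at 196 ± 66.4 CPM in sham and 117 ± 33.8 CPM at 5d (−0.74 ± 0.21, edgeR, adjusted p = 0.307). Me1, which supplies NADPH, had −0.29 ± 0.10 at 5d vs sham and 0.26 ± 0.11 for 28d vs 5d (edgeR, adjusted p = 0.444 and 0.457), and the desaturase gene Scd2 had 0.29 ± 0.17 for 28d vs 5d (edgeR, adjusted p = 0.672). These genes are abundant in fat, and the white adipocyte sum was lower in the same groups, with means of 1203 ± 523 CPM in sham, 856 ± 469 CPM at 5d and 583 ± 231 CPM at 28d. Of 6 tested white adipocyte markers 4 were lower at 28d vs sham with an unadjusted p under 0.05 by edgeR, with a median log2 fold change of −0.94. At 5d vs sham 1 of the 6 reached this level and all 6 were below 0, with a median log2 fold change of −0.50. The median of the white adipocyte sum was 1042 CPM at 5d and 1160.5 CPM in sham. Brown adipocyte markers were lower by more, with sums of 193 ± 116 CPM in sham, 119 ± 94.9 CPM at 5d and 44.2 ± 29.5 CPM at 28d. All 5 of them were lower at 28d with an unadjusted p under 0.05 by edgeR (median log2 fold change −2.25), although none passed, and the part of brown fat in the values of the set was not tested. Kcnk3, 1 of the 5, was at 61.2 and 48.2 CPM in sham replicates 2 and 6, the sham kidneys high in adrenal cortex markers. In the other sham kidneys Kcnk3 was at 2.50 to 18.6 CPM. With the white adipocyte sum as a covariate the log2 fold change was −0.37 for Fasn at 28d (edgeR, adjusted p = 0.877) and −0.51 for Acly at 5d (edgeR, adjusted p = 0.547). Me1 at 5d moved less, to −0.22 with this covariate (edgeR, adjusted p = 0.663). Whether less fat in the samples accounts for the lower values was not tested.

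Fat was therefore set against the genes of the set, kidney by kidney, after removing the group means. Over 22 kidneys, none of the 8 genes was related to the white adipocyte sum or to the summed genes of the fatty acid branch at an adjusted p under 0.05 (16 relations, permutation within groups). With the white adipocyte sum, Cyp51 had the highest value with r = 0.44 and rho = 0.42 (permutation p = 0.0441 and 0.0618, adjusted p = 0.164 and 0.464), and r was 0.49 without the 2 kidneys farthest from the median. Insig1 followed with r = 0.39 and rho = 0.23 (permutation p = 0.0512 and 0.290, adjusted p = 0.164 and 0.464), and r was 0.43 without 2 such kidneys. Values with the sum of the fatty acid branch were higher for these genes. Fdps had r = 0.51 and rho = 0.37 (permutation p = 0.0312 and 0.112), Insig1 r = 0.48 and rho = 0.29 (permutation p = 0.0265 and 0.173) and Cyp51 r = 0.47 and rho = 0.44 (permutation p = 0.0227 and 0.0479). The adjusted p of all 3 were again 0.164 and 0.464, and r was 0.53, 0.51 and 0.42 without the 2 kidneys farthest from the median of that sum.

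Within the 8 sham kidneys alone, a relation looked at after the data had been seen, Insig1 followed the white adipocyte sum with r = 0.90 and rho = 0.74 (exact permutation p = 0.00660 and 0.0458). Fdps did so with r = 0.85 and rho = 0.76 (exact permutation p = 0.00776 and 0.0368). Over the 24 relations of 8 genes in 3 groups the adjusted p were 0.0932 for both Pearson values and 0.55 for both Spearman values. Without the 2 kidneys farthest from the median, r was 0.69 for Insig1 and 0.49 for Fdps. At 5d and at 28d r was 0.08 and −0.05 for Insig1 and 0.00092 and −0.14 for Fdps. Sham replicate 8 had the lowest Insig1, Fdps, Cyp51 and Srebf2 values of its group and also the lowest fat sum, 389 CPM. With the fat sum as a covariate, the log2 fold change of Insig1 at 5d vs sham was −0.29 (edgeR, adjusted p = 0.547), and that of Srebf2 −0.27 (edgeR, adjusted p = 0.388).

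**Figure D4:**
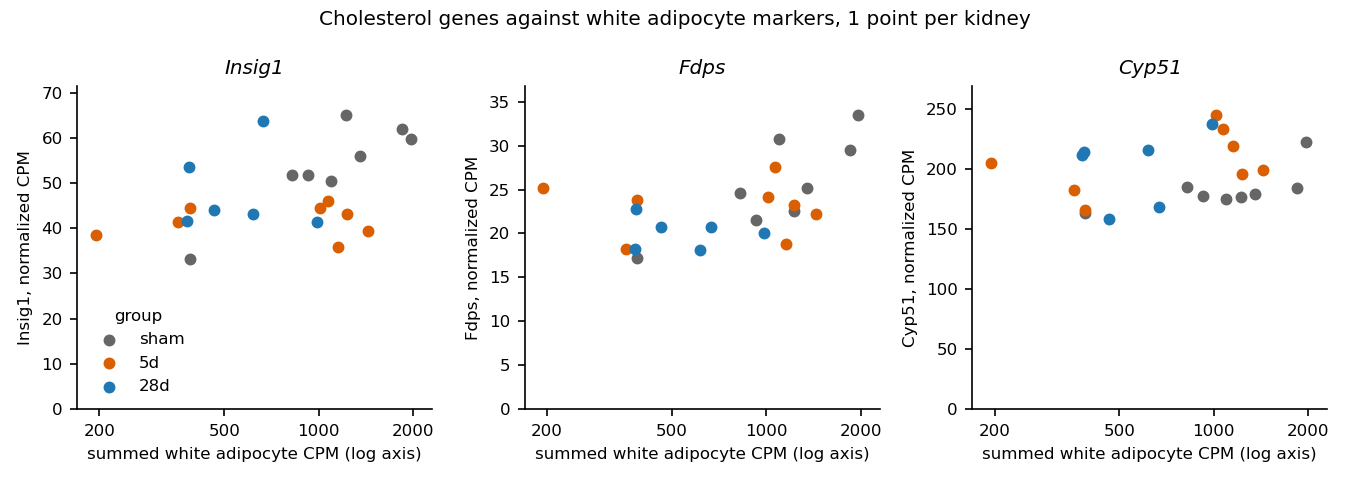
Normalised CPM of Insig1, Fdps and Cyp51 (y axes, starting at 0) against the summed CPM of 7 white adipocyte markers (x axis, log scale), with 1 point per kidney coloured by group. In sham kidneys (grey) Insig1 and Fdps are higher where the fat sum is higher (r = 0.90 and 0.85), and at 5d (orange) and 28d (blue) they are not (r from −0.14 to 0.08).

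No r over all kidneys was taken for adrenal cortex markers, since the sums of the 3 high kidneys lie far above those of the others. They also differ among themselves, from 99.9 to 1048 CPM. Without these 3 kidneys the log2 fold change of Insig1 at 5d was −0.33 (edgeR, adjusted p = 0.537), that of Srebf2 −0.25 (edgeR, adjusted p = 0.554) and that of Fdps at 28d −0.30 (edgeR, adjusted p = 0.670). All kept their direction and none passed the test.

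Whether the 8 genes varied together between kidneys of one group was examined over their 28 pairs. Correlations ranged from −0.39 to 0.71 with a median of 0.01, and 15 of the 28 were positive. The highest belonged to Hmgcs1 and Idi1 with r = 0.71 and rho = 0.57 (permutation p = 0.00163 and 0.0131, adjusted p = 0.0456 and 0.183). It was 0.41 in sham, 0.83 at 5d and 0.60 at 28d, and 0.49 over the kidneys left when the 2 farthest were taken out. In each pair the 2 farthest kidneys were those farthest from the median of the gene named first. An extreme value of the other gene could therefore remain. Fdps and Insig1 had r = 0.60 and rho = 0.50 (permutation p = 0.00739 and 0.0177, adjusted p = 0.104 and 0.183), with 0.66, 0.60 and 0.59 in the 3 groups and 0.66 without the 2 farthest kidneys. Idi1 and Cyp51 had r = 0.54 and rho = 0.50 (permutation p = 0.0145 and 0.0262, adjusted p = 0.136 and 0.183), but −0.43 in sham and 0.31 without the 2 farthest kidneys. The lowest value was that of Hmgcs1 and Insig1, with r = −0.39 and rho = −0.49 (permutation p = 0.0247 and 0.0210, adjusted p = 0.173 and 0.183). Thus, no pair passed by both measures.

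**Figure D5:**
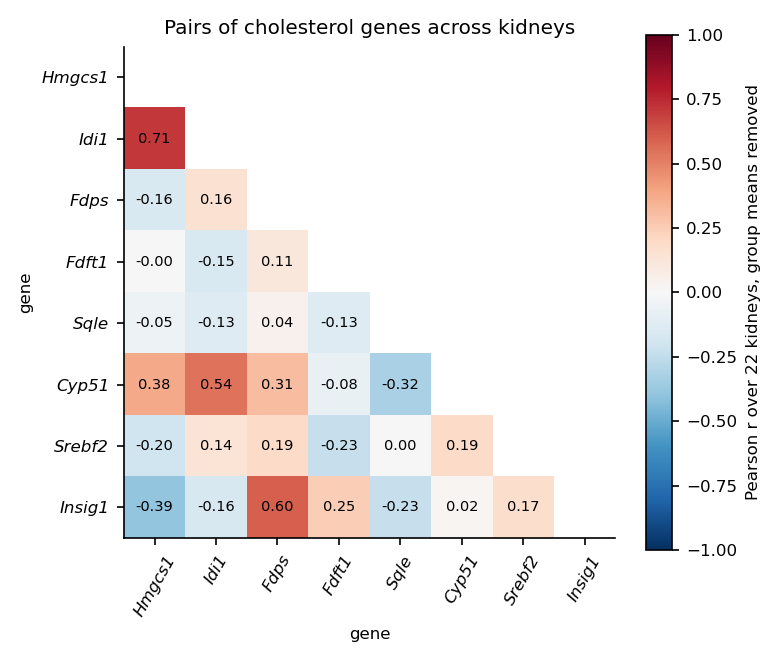
Pearson r of each pair of genes (both axes) over 22 kidneys after removing group means, from −1 (blue) to 1 (red). Hmgcs1 with Idi1 (0.71) and Fdps with Insig1 (0.60) are highest, and most other pairs lie near 0.

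Each gene was also set against the mean of the other 7, which gave r of 0.43 for Fdps, 0.42 for Cyp51, 0.28 for Idi1, 0.26 for Hmgcs1, 0.09 for Srebf2, 0.07 for Insig1, −0.08 for Fdft1 and −0.24 for Sqle (22 kidneys, a description). Among 12772 other genes, those whose variation was most like the mean of the set were Rpusd4 (r = 0.80), Nol10 (0.78), Arsg (0.73), Tmsb10 (0.73), Gdf15 (0.72), Supt20 (0.71), Cstf1 (0.71), Ammecr1 (0.70), Nr1h3 (0.70) and BC003965 (0.70). The mean was taken without scaling the genes to equal spread, so that genes that vary more, such as Idi1, weigh more in it. Of these 10 genes only Nr1h3, the gene of the oxysterol receptor LXRα, was on a list of the cholesterol pathway. The best placed of the other synthesis enzymes, Nsdhl, had rank 818 (r = 0.39), and Mvd had rank 4429 (r = 0.10).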

How the data were processed

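Kidney RNA of male mice was sequenced by MACE, and sample labels listed 24 kidneys. The deposited values are whole-number counts per gene that the authors did not normalise, together with values the authors named tpm, which equal CPM scaled to each kidney's total (largest difference 5e-06) and are not divided by gene length. Trimming with Cutadapt, mapping and counting with HTSeq were done by the authors. The paper's methods state mm10, whereas the submitters' processing notes list mm39 and Bowtie2, and the annotation and the strand setting are not given in the sources used here. Of 48 value columns, 4 were not used because 2 kidneys share a column name, which left 22 kidneys. Each kidney is from its own mouse per the paper's methods.

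Counts were tested with edgeR 4.0.16 in R 4.3.3 (robust quasi-likelihood F test, two-sided, TMM, filterByExpr with a minimum of 10 counts, all 3 groups in 1 fit). This left 12780 of 30116 genes with a count. P-values were adjusted by Benjamini-Hochberg over all tested genes, and genes were called under 0.05. The SE was derived from the log2 fold change and its F statistic. The printed CPM use TMM-scaled totals, and log2 CPM for correlations used a prior count of 2. Correlations were tested by 100000 permutations within groups, or exactly within 1 group. Scripts were tested on simulated data. DESeq2 1.42.0, limma voom 3.58.1 and the marker sums as covariates were alternatives. Symbols and positions come from GENCODE M21 (GRCm38), which matched 51948 of the 56941 identifiers, and promoters from RefSeq. No 2 kidneys of a group were alike within counting noise (chi-squared per degree of freedom from 1.77 to 8.10 over 71 pairs).

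The genes and the lists were chosen with earlier results of these data known. Besides the set itself, genes of 4 pathway lists were named if they were called or had one of the 2 lowest p in a comparison, and the 10 genes most like the mean of the set were named. The marker lists for the other cell types of the kidney were used as sums and counts.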

Additional observations from a re-analysis of the deposited data

Results flagged for a closer look

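In 5 of the 33 groups of values examined, one kidney lay far from the others of its group, where chance gives about 1 in 20. Fdft1 was 24.05 CPM in sham replicate 5, with the other 7 sham kidneys between 11.4 and 16.5 CPM. Cyp51 was 223 CPM in sham replicate 1, with the others between 164 and 185 CPM. Insig1 was 33.27 CPM in sham replicate 8, with the others between 50.4 and 65.0 CPM. Mvd was 78.88 CPM in replicate 3 at 28d post-MI, with the others between 55.2 and 60.8 CPM. The summed adrenal cortex markers were 99.9 CPM in replicate 5 at 5d post-MI, with the others between 6.77 and 9.96 CPM.

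Mvd was higher at 28d than at 5d post-MI, with a log2 fold change of 0.3975 (edgeR, adjusted p = 0.0149, 6 of 6 kidneys at 28d above the mean at 5d). There were no sham kidneys of 28d, so that MI and time cannot be told apart here, and neither MI group passed against sham (edgeR, adjusted p = 0.624 at 5d and 0.388 at 28d). Without replicate 3 at 28d the adjusted p was 0.0973, and with only the groups compared in the fit it was 0.0577 (edgeR).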

How the results depend on the processing

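The count of genes of the set that passed was 0 in all 3 comparisons, and at 5d vs sham it was 1 (Insig1, −0.35, adjusted p = 0.00764) without a filter on low counts and ranged from 0 to 1 with single kidneys left out (Insig1 without sham replicate 8, −0.44, adjusted p = 0.0353). The cause was not tested. The median log2 fold change of the set moved by less than 0.0943, the SD of the median deviation in sham, in every setting. Of 240 values of single genes of the set in the other settings 227 kept their direction and side of the threshold, 12 changed direction and 1 passed. Of 528 values with 1 kidney left out, 503, 24 and 1 did so. No value that changed direction was larger than 0.0845 in size. With the adrenal markers as a covariate, Sqle at 5d was 0.0273 and Mbtps2 at 28d vs sham −0.0392. Without the kidneys high in these markers, Sqle at 5d was 0.0134, Hmgcs1 at 5d −0.00419, Hmgcs1 for 28d vs 5d 0.0266 and Mbtps2 at 28d −0.0476. With the fat markers Fdft1 at 5d was 0.0249 and Cyp51 for 28d vs 5d 0.00577, and with both marker sums Cyp51 was 0.00203 and Mbtps2 −0.0262. Hmgcs1 for 28d vs 5d was 8.21e-05 with median-ratio size factors, 3.49e-05 by DESeq2 and 0.0149 by limma voom. With single kidneys left out, the ranges that crossed 0 were −0.0553 to 0.0443 for Sqle and −0.107 to 0.0837 for Fdft1 at 5d, −0.0872 to 0.0825 for Idi1, −0.177 to 0.014 for Fdft1 and −0.00556 to 0.153 for Mbtps2 at 28d, and −0.0557 to 0.0462 for Hmgcs1, −0.151 to 0.00842 for Fdft1 and −0.0903 to 0.0297 for Cyp51 for 28d vs 5d.

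The replicate numbers did not pair the kidneys: over 18 pairs with the same number the correlation of their deviations lay between −0.13 and 0.09. With the replicate block 0 genes of the set passed, the medians were −0.12, −0.13 and 0.00756, Idi1 at 28d was 0.0845, Hmgcs1 for 28d vs 5d was 0.0780 and Mvd for 28d vs 5d was 0.37 (adjusted p = 0.0818). Across all genes the calls were 9, 3 and 53, compared to 35, 42 and 96 by DESeq2, 5, 5 and 50 by limma voom, 80, 94 and 160 without a filter, 2, 31 and 26 with only the groups compared and 2, 24 and 80 with the block. With 29 to 71 counts per kidney, Fdft1 had the coarsest values of the set.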
